A study of Mus musculus with 9 samples.

Results

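The integrin and laminin genes of mouse kidney are described here across sham operation and ischemic injury with and without a ketone salt. They were taken as every protein-coding gene whose GENCODE M21 symbol names a laminin alpha, beta or gamma chain or an integrin alpha or beta subunit, which gave 37 genes of 17860 protein-coding genes, 26 for integrins (18 alpha and 8 beta) and 11 for laminins. RNA from kidney tissue was sequenced after poly(A) selection, 24 h after reperfusion, in 3 groups with 3 libraries each in the labels. BHBNa_bIRI kidneys were pretreated with BHB sodium, a salt of the ketone body beta-hydroxybutyrate, before bilateral ischemia-reperfusion injury. bIRI kidneys had the injury without BHB sodium, and Sham kidneys had the sham operation. The labels used here give no strain, sex, age, dose or time of pretreatment, and do not state which animal a library came from, so p-values measure only the spread between libraries.

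The table of bIRI 2 equalled the mean of bIRI 1 and bIRI 3, rounded down, in all 29678 genes, and was left out, which leaves 8 libraries with total counts of 33477985 to 45909063. bIRI 3 stood apart from the other 7 libraries on the second principal component of log2 expression, at -130.2 against -5.92 to 39.9. Of the 36 integrin and laminin genes tested, 12 differed over 2-fold between bIRI 1 and bIRI 3 (33.3%, against 32.7% of 17643 genes with counts in both). For the integrin and laminin genes, calls that turn on 1 of these libraries are therefore also given without it, in fits where the single bIRI library is taken to vary like the other groups. Slc34a1 and Lrp2, transport genes that define the proximal tubule, were present in every library, with Slc34a1 at counts-per-million (CPM) values of 552 to 720 in BHBNa_bIRI, 535 and 359 CPM in bIRI 1 and 3, and 4424 to 5392 CPM in Sham.

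Laminins are trimers of an alpha, a beta and a gamma chain that polymerise into the basement membrane under every tubule, vessel and glomerulus. Integrins are dimers of an alpha and a beta subunit through which cells hold on to that sheet, to interstitial matrix or to other cells. The subunits of tubule cells (Itga3 and Itga6 with Itgb1, Itga6 with Itgb4, Itgav with Itgb6 or Itgb8) differ from those of leukocytes, which pair Itgal, Itgam, Itgax or Itgad with Itgb2, and Itga4 or Itgae with Itgb7. Whole tissue holds both kinds of cell, and fewer cells of a type and less RNA per cell cannot be told apart in it.

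Levels of different genes are compared as CPM per kilobase of exon (CPM per kb). In Sham kidneys Itgb1, the beta subunit shared by most matrix receptors, had the highest level, 65.4 CPM per kb on average (range 60.5 to 68.5). Itgb5, a partner of Itgav, came next with 48.0 CPM per kb (range 46.2 to 48.9), and these ranges did not overlap. Lamb1 and Lamb2 followed, with overlapping ranges of 8.23 to 11.7 and 10.02 to 10.3 CPM per kb. Itgav, Itga3 and Itgb6 overlapped each other between 6.89 and 9.78 CPM per kb. The order below Itgb5, and the shares given further below, depend on the length used. Per kilobase of transcript instead of exon, the Sham means were 17.9 for Lamb1, 10.9 for Lamb2, 12.7 for Itga6 and 9.72 for Itga3. The low end of the order in Sham was held by Itgad at 0, Itga11 at a mean of 0.061, Itga2 at 0.094 and Itga10 at 0.099 CPM per kb. In BHBNa_bIRI kidneys Itgb1 again led with a mean of 129.9 CPM per kb, and Itga3 at 30.4 to 49.4 and Itgb5 at 30.9 to 42.5 CPM per kb followed, with ranges that overlapped.

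Ischemic injury moved many of these genes, most of them upward, with 5 of 6 epithelial integrins rising in bIRI against Sham and 1 of 7 leukocyte integrins rising while 3 fell. In bIRI against Sham, 15 of the 36 genes tested rose and 6 fell by edgeR at an adjusted p of 0.05, where 18.9% of all 17967 genes tested rose and 16.2% fell. Against Sham, BHBNa_bIRI had 16 that rose and 6 that fell, where 21.3% of all genes rose and 22.2% fell. The median log2 fold change of the 36 genes was 0.35 in bIRI against Sham (0.08 over all genes) and 0.60 in BHBNa_bIRI against Sham (0.04 over all genes). These genes are long, and long genes in general also rose in bIRI against Sham. The 4217 genes with transcripts over 4000 bases had medians of 0.23 in bIRI against Sham and -0.19 in BHBNa_bIRI against Sham. With offsets for transcript length and GC content, the medians of the 36 genes were 0.36 and 0.79 (0.14 and 0.06 over all genes). Both comparisons use the same Sham libraries, so their calls are not independent. Itgad, which had 4 counts in all, was not tested. In both comparisons 14 genes rose, among them Itga2, Itga3, Itga5, Itga6, Itgam, Itgav, Itgb1, Itgb3, Itgb4, Itgb6, Lama5 and Lamb3.

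Several of these calls rest on single libraries or on the processing. In bIRI against Sham, Itgav and Itga9 were no longer called without bIRI 1 or without any 1 Sham library, Itga9 also without BHBNa_bIRI 2, and over all alternatives their log2 fold changes were 0.30 to 1.53 and 0.24 to 1.34. Itgal, at -1.76 to -0.91, was lost without bIRI 3, Sham 1, Sham 3 or any 1 BHBNa_bIRI library. In BHBNa_bIRI against Sham, Itgav (0.68 to 1.02) and Itga10 (1.37 to 1.74) were lost without any 1 Sham or BHBNa_bIRI library, Itgb2 (0.67 to 1.07) without any 1 library of these groups but BHBNa_bIRI 3, and Itga1 (-0.50 to -0.25) without any but Sham 3. Lama1 (-1.01 to -0.65) was lost without Sham 1, Sham 2, BHBNa_bIRI 2 or BHBNa_bIRI 3, Lamb1 (-0.87 to -0.50) without Sham 1, Sham 2, BHBNa_bIRI 1 or BHBNa_bIRI 3, and Lama2 (-1.71 to -1.10) without BHBNa_bIRI 2. With offsets for transcript length and GC content, Itgav, Itga9 and Itgal were no longer called in bIRI against Sham, nor Itga1, Lama2 and Lamb1 in BHBNa_bIRI against Sham. With these offsets and a block for replicate numbers together, Itga5, Itgb1 and Itgb6 were not called in bIRI against Sham either. Itga5 was also not called there without a filter on low counts.

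Other genes gained a call. Without bIRI 1, edgeR called Itga10 (1.86 on the log2 scale) and Lamb1 (0.88) higher and Lama2 (-1.73), Itga7 (-0.62) and Itga8 (-0.60) lower in bIRI against Sham, and without bIRI 3 it called Itga2b (-1.78) lower. With offsets it called Itgb8 lower and Lamb1 higher in that comparison, and DESeq2 called Itgae lower (-1.23). In BHBNa_bIRI against Sham, Itgb5 (-0.42 and -0.41) was called lower and Itga9 (0.56 and 0.57) higher without bIRI 1 or without bIRI 3, Itga4 (0.63) higher without bIRI 3, and Itgae (-1.41) lower without BHBNa_bIRI 3. With offsets or with only BHBNa_bIRI and Sham in the fit, Itgb5 was called lower and Itga4, Itga9 and Lama4 higher in BHBNa_bIRI against Sham.

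**Figure D1:**
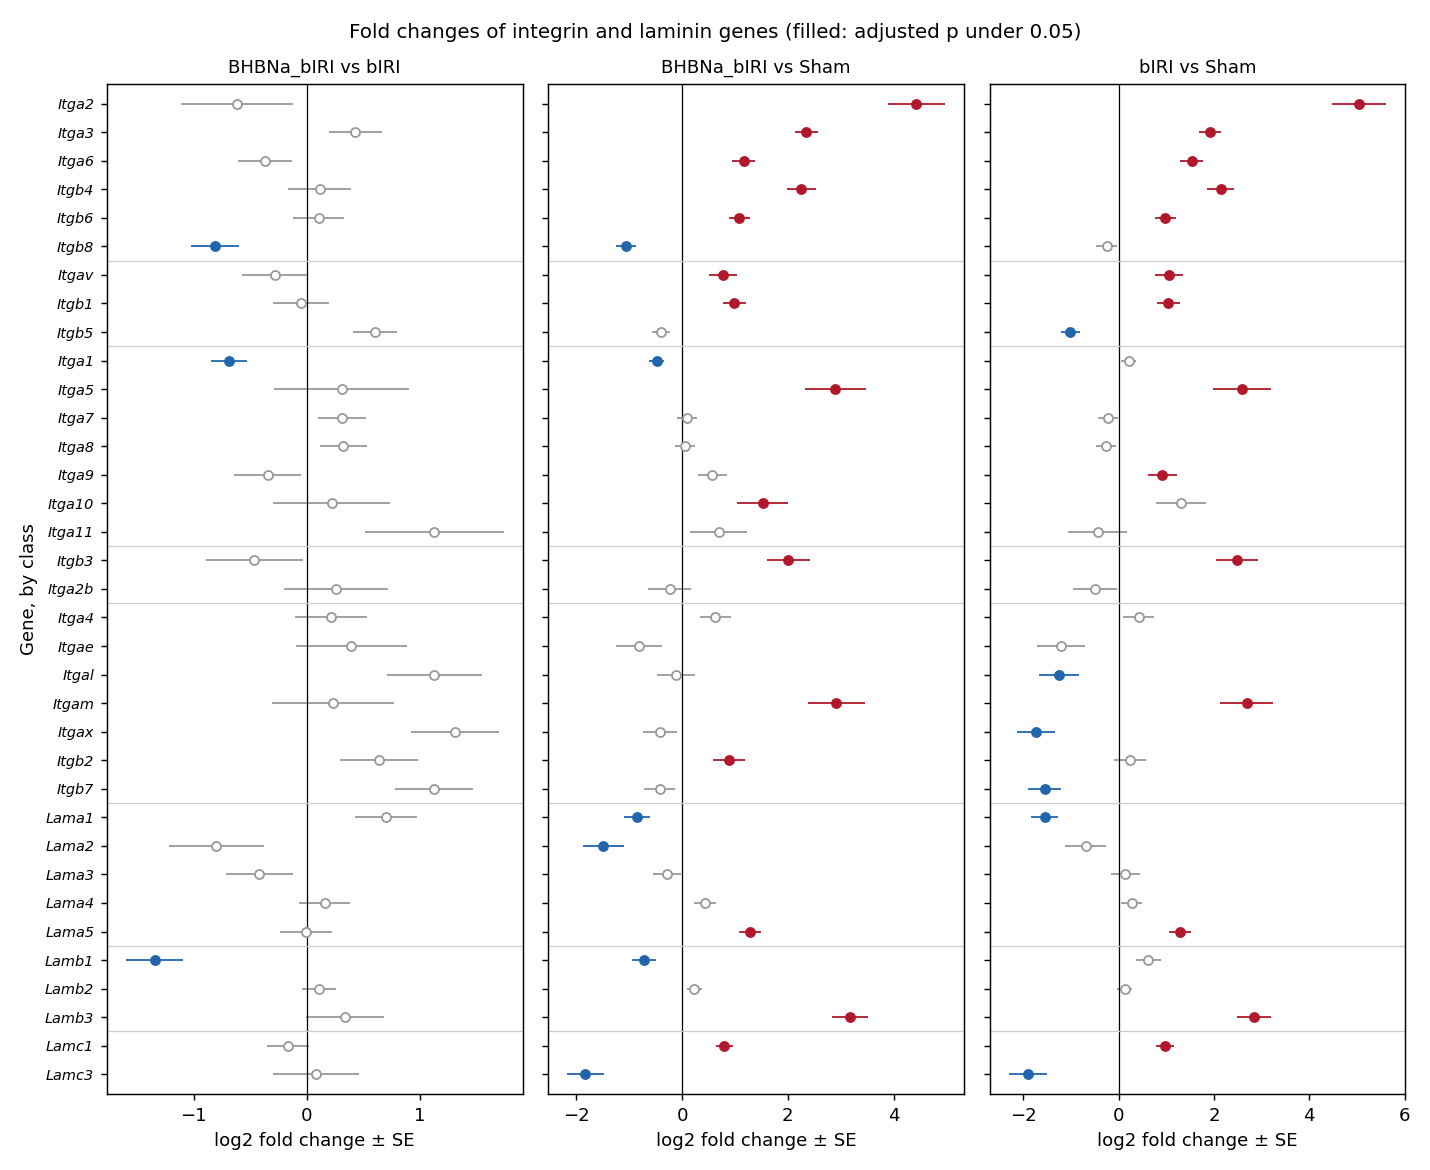
Log2 fold change with its standard error (horizontal axes) of integrin and laminin genes (rows, grouped by class) in BHBNa_bIRI against bIRI (left), BHBNa_bIRI against Sham (middle) and bIRI against Sham (right), from edgeR. Filled points passed an adjusted p of 0.05, red higher and blue lower in the group named first. The left panel has 3 filled points, all lower, while most filled points of the other panels are red.

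Most epithelial integrins rose after injury. Of 6 genes tested (Itga2, Itga3, Itga6, Itgb4, Itgb6 and Itgb8), 5 rose in bIRI against Sham, with a median log2 fold change of 1.73 over the 6. That is 83.3%, against 18.9% of all genes. The count was 5 in each fit that left out 1 Sham or BHBNa_bIRI library, where 2088 to 3089 of all genes rose. Without bIRI 1 the median was 1.40 and without bIRI 3 it was 1.75. Itgb6 was not called in bIRI against Sham with length and GC offsets and a block for replicate numbers together. In BHBNa_bIRI against Sham 5 rose and Itgb8 fell, 83.3% and 16.7% against 21.3% and 22.2% of all genes, with a median of 1.71. Their summed level was 515 to 608 CPM in BHBNa_bIRI, 617 and 497 CPM in bIRI 1 and 3, and 229 to 239 CPM in Sham. Havcr1, Lcn2, Krt20 and Sox9, which mark injured tubule cells, rose in the same comparisons, and the 5 listed injury markers summed to 2860 to 3475 CPM in BHBNa_bIRI, 5128 and 1592 CPM in bIRI 1 and 3, and 13.6 to 20.5 CPM in Sham. Their part in the integrin values was not tested.

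Itga2 encodes the alpha subunit of a collagen and laminin receptor of epithelium and platelets, and lies on the reverse strand of GRCm38 chromosome 13, from 114833081 to 114932100. It had 7.25, 22.0 and 14.6 CPM in BHBNa_bIRI 1, 2 and 3, 10.9 and 33.9 CPM in bIRI 1 and 3, and 0.646, 0.753 and 0.620 CPM in Sham 1, 2 and 3. Every injured library was above every Sham library, and the injured libraries differed several-fold among themselves. The log2 fold change was 5.05 (SE 0.57, edgeR adjusted p = 0.000303) in bIRI against Sham and 4.43 (SE 0.54, edgeR adjusted p = 0.000269) in BHBNa_bIRI against Sham. Both were the largest log2 fold changes of the 36 genes tested. The promoter of Itga2 in the RefSeq table for GRCm38.p6, 250 bases before to 50 after the start (chr13:114932051-114932350, read on the reverse strand), is shown because its gene moved most. Capitals mark a GC box (GGGCGG, searched on both strands), whose first base lies at position 3 counted from the start.
Itga2: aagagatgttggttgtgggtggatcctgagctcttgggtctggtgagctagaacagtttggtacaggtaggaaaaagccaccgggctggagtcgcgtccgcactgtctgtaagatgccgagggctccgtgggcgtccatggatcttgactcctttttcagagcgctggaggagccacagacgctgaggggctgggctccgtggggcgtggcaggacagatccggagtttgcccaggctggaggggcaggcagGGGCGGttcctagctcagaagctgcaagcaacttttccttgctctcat

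Itga3 and Itga6 encode the alpha subunits of the main laminin receptors of the tubule. Itga3 had 173, 267 and 282 CPM in BHBNa_bIRI, 199.6 and 158 CPM in bIRI 1 and 3, and 46.3, 46.5 and 49.0 CPM in Sham. Itga6 had 144, 126 and 97.1 CPM in BHBNa_bIRI, 191 and 126 CPM in bIRI 1 and 3, and 63.6, 51.4 and 49.2 CPM in Sham. All injured libraries lay above all Sham libraries for both genes. Itga3 rose by 1.92 (SE 0.23, edgeR adjusted p = 0.000381) on the log2 scale in bIRI against Sham and by 2.35 (SE 0.22, edgeR adjusted p = 6.17e-05) in BHBNa_bIRI against Sham. Itga6 rose by 1.53 (SE 0.24) and 1.16 (SE 0.22) in the same comparisons. Among the laminin-binding alpha subunits Itga3, Itga6 and Itga7, Itga3 held 63.1% to 79.4% of the summed CPM per kb in BHBNa_bIRI, 60.4% and 64.5% in bIRI 1 and 3, and 48.0% to 54.2% in Sham. The size of this share depends on the length used. Per kilobase of transcript, the mean of Itga3 was 9.72 against 12.7 for Itga6 in Sham, and 49.5 against 28.4 in BHBNa_bIRI. Itga7, the laminin-binding subunit best known from muscle, had 14.3 to 16.7 CPM in BHBNa_bIRI, 14.8 and 9.86 CPM in bIRI 1 and 3, and 14.1 to 14.6 CPM in Sham, and passed the test in neither comparison.

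Itgb4, the partner of Itga6 in hemidesmosomes, had 21.3, 36.5 and 25.2 CPM in BHBNa_bIRI, 18.9 and 32.2 CPM in bIRI 1 and 3, and 5.96, 6.14 and 5.25 CPM in Sham. The injured and Sham ranges did not overlap, and Itgb4 rose by 2.14 (SE 0.28, edgeR adjusted p = 0.000639) in bIRI against Sham and by 2.26 (SE 0.27, edgeR adjusted p = 0.000223) in BHBNa_bIRI against Sham on the log2 scale. Itgb6, an epithelial subunit that with Itgav activates latent TGF-beta, had 133, 118 and 117 CPM in BHBNa_bIRI, 139 and 89.5 CPM in bIRI 1 and 3, and 49.0, 69.5 and 55.0 CPM in Sham. Its rise was smaller than that of Itgb4, at 0.98 (SE 0.23, edgeR adjusted p = 0.00913) in bIRI against Sham and 1.09 (SE 0.21, edgeR adjusted p = 0.00274) in BHBNa_bIRI against Sham. Itgb8, another partner of Itgav, went the other way, with 35.9, 38.5 and 23.9 CPM in BHBNa_bIRI, 58.4 and 56.6 CPM in bIRI 1 and 3, and 63.9, 65.1 and 76.5 CPM in Sham. It was not called in bIRI against Sham (log2 fold change -0.25, SE 0.22), though it was with length and GC offsets (-0.96, edgeR adjusted p = 0.00719), and fell by 1.06 (SE 0.19, edgeR adjusted p = 0.00222) in BHBNa_bIRI against Sham.

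**Figure D2:**
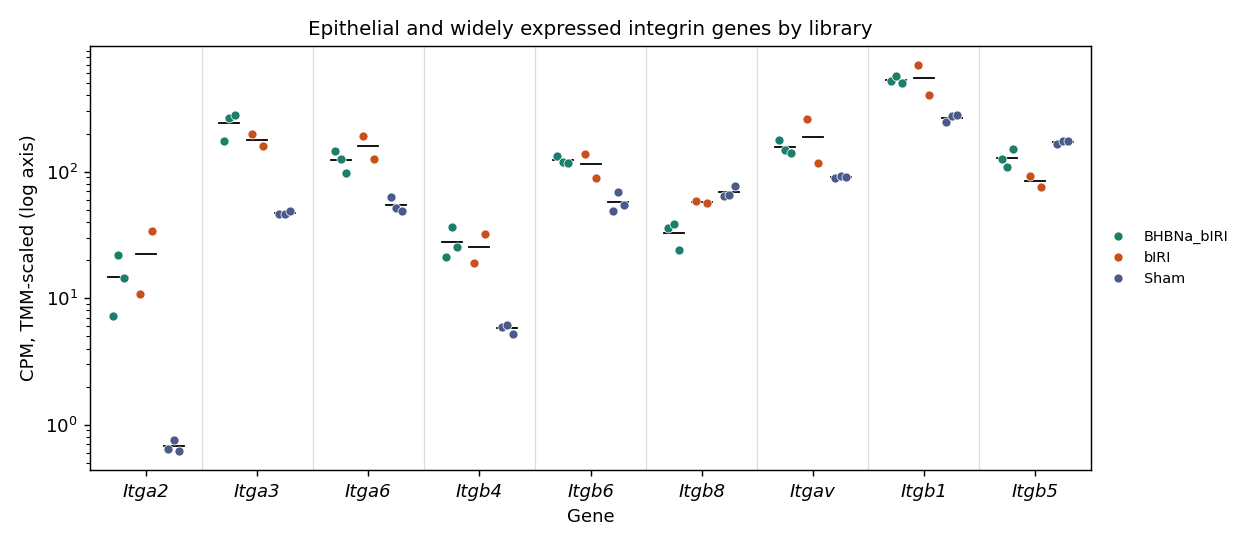
CPM on TMM-scaled library sizes (vertical log axis) of the epithelial integrin genes and of Itgav, Itgb1 and Itgb5, with 1 point per library for BHBNa_bIRI (n = 3), bIRI (n = 2) and Sham (n = 3) and a line at each group's mean. Itga2 lies between 7.25 and 33.9 CPM in the 5 injured libraries and below 1 CPM in Sham, while Itgb5 is highest in Sham.

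Itgb1, which had the highest level per kb in Sham and BHBNa_bIRI, had 520, 570 and 500 CPM in BHBNa_bIRI, 693 and 402 CPM in bIRI 1 and 3, and 247, 274 and 280 CPM in Sham. It rose by 1.04 (SE 0.24, edgeR adjusted p = 0.01) on the log2 scale in bIRI against Sham and by 0.99 (SE 0.22, edgeR adjusted p = 0.00638) in BHBNa_bIRI against Sham. Itgav, the alpha subunit of receptors for RGD-bearing ligands such as vitronectin and osteopontin, had 178, 149 and 139.9 CPM in BHBNa_bIRI, 261 and 117 CPM in bIRI 1 and 3, and 89.5, 91.8 and 90.6 CPM in Sham. Its rise in bIRI against Sham, 1.06 (SE 0.29, edgeR adjusted p = 0.0191) on the log2 scale, was 0.30 (adjusted p = 0.183) without bIRI 1. Itgav rose by 0.78 (SE 0.26, edgeR adjusted p = 0.0369) in BHBNa_bIRI against Sham. Itgb5 was lower after injury, at 126, 110 and 151 CPM in BHBNa_bIRI, 93.2 and 75.8 CPM in bIRI 1 and 3, and 164, 174 and 174 CPM in Sham. It fell by 1.01 (SE 0.20, edgeR adjusted p = 0.00426) in bIRI against Sham and was not called in BHBNa_bIRI against Sham (log2 fold change -0.41, SE 0.17, edgeR adjusted p = 0.0814), though it was without bIRI 1 or bIRI 3.

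The shares of the beta partners of Itgav differed between injured and Sham kidneys. Itgb5 held 59.0% to 68.2% of the summed CPM per kb of Itgb3, Itgb5, Itgb6 and Itgb8 in BHBNa_bIRI, 49.3% and 53.6% in bIRI 1 and 3, and 75.4% to 78.1% in Sham. Itgb6 held 26.5% to 32.2% in BHBNa_bIRI, 36.7% and 31.6% in bIRI 1 and 3, and 11.7% to 15.1% in Sham. Injured libraries did not overlap Sham for either share. The summed level of the 4 partners was 52.3 to 62.3 CPM per kb in BHBNa_bIRI, 53.2 and 39.8 CPM per kb in bIRI 1 and 3, and 59.2 to 64.8 CPM per kb in Sham.

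Among the 7 mesenchymal and matrix integrins, Itga5 and Itga9 rose in bIRI against Sham, 28.6% against 18.9% of all genes. None fell by edgeR (0 lower at an unadjusted p under 0.05 and 0 lower by DESeq2), but Itga7 and Itga8 were called lower without bIRI 1. In BHBNa_bIRI against Sham, Itga5 and Itga10 rose and Itga1 fell, 28.6% and 14.3% against 21.3% and 22.2% of all genes. Itga5, the alpha subunit of the fibronectin receptor, had 86.0, 82.4 and 104 CPM in BHBNa_bIRI, 129.6 and 16.8 CPM in bIRI 1 and 3, and 11.7, 11.1 and 13.7 CPM in Sham. bIRI 3 thus lay close to Sham and bIRI 1 above every BHBNa_bIRI library, a 7.71-fold gap that was the widest between both bIRI libraries among the 36 genes. The log2 fold change in bIRI against Sham was 2.59 (SE 0.60, edgeR adjusted p = 0.00958), 0.40 (adjusted p = 0.109) without bIRI 1 and 3.42 (adjusted p = 3.44e-07) without bIRI 3. It was 2.90 (SE 0.58, edgeR adjusted p = 0.00338) in BHBNa_bIRI against Sham. Of 5 fibroblast and pericyte markers, the collagen genes Col1a1 and Col3a1 rose in both comparisons and Pdgfrb rose in BHBNa_bIRI against Sham, while Pdgfra and Dcn were called in neither, with Dcn at 9.88 to 18.8 CPM in BHBNa_bIRI and 21.9 to 30.9 CPM in Sham. The 5 fibroblast and pericyte markers summed to 365 to 511 CPM in BHBNa_bIRI, 422 and 246 CPM in bIRI 1 and 3, and 144 to 161 CPM in Sham, so bIRI 3 was the lower bIRI library in the sum, although not for Pdgfra (38.9 and 44.7 CPM in bIRI 1 and 3). Their part in the Itga5 values was not tested.

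Itga9, which binds tenascin and osteopontin, had 15.5, 18.9 and 23.3 CPM in BHBNa_bIRI, 32.8 and 16.1 CPM in bIRI 1 and 3, and 14.0, 13.8 and 10.9 CPM in Sham. Its call in bIRI against Sham (log2 fold change 0.92, SE 0.30, edgeR adjusted p = 0.0386) was lost without bIRI 1, at 0.24 (adjusted p = 0.439). Itga10, a collagen receptor of cartilage, stayed low at 1.59, 1.44 and 1.44 CPM in BHBNa_bIRI, 0.591 and 1.96 CPM in bIRI 1 and 3, and 0.398, 0.525 and 0.620 CPM in Sham. It rose by 1.53 (SE 0.48, edgeR adjusted p = 0.0284) on the log2 scale in BHBNa_bIRI against Sham, a call lost without any 1 Sham or BHBNa_bIRI library (1.37 to 1.68). Of its exon bases 33.5% are shared on the same strand with the gene model Gm42957, so its level is uncertain. Itga8, which marks mesangial cells, was at 14.4 to 18.1 CPM in BHBNa_bIRI, 14.9 and 10.6 CPM in bIRI 1 and 3, and 14.7 to 15.9 CPM in Sham, and passed the test in neither comparison. Itga11, a collagen receptor of fibroblasts, had 0.466, 0.560 and 0.489 CPM in BHBNa_bIRI, 0.241 and 0.218 CPM in bIRI 1 and 3, and 0.497, 0.183 and 0.258 CPM in Sham, and passed in none of the 3.

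Of the pair that platelets use, only Itgb3 passed the test. Itgb3, which also pairs with Itgav in vessels and other cells, had 3.94, 7.82 and 7.06 CPM in BHBNa_bIRI, 12.6 and 4.65 CPM in bIRI 1 and 3, and 1.69, 1.60 and 1.37 CPM in Sham. It rose by 2.48 (SE 0.44, edgeR adjusted p = 0.00269) on the log2 scale in bIRI against Sham and by 2.01 (SE 0.41, edgeR adjusted p = 0.00381) in BHBNa_bIRI against Sham. Itga2b, its platelet partner, had 7.72, 7.88 and 10.9 CPM in BHBNa_bIRI, 3.02 and 11.8 CPM in bIRI 1 and 3, and 8.85, 10.5 and 11.8 CPM in Sham, and was called in neither. Without bIRI 3, however, edgeR called Itga2b lower in bIRI against Sham, at -1.78 (adjusted p = 0.00103) on the log2 scale. Of 5 platelet markers 3 were tested, and Pf4 and Ppbp rose in both comparisons, though in bIRI against Sham neither was called without bIRI 1 (1.31 and -0.28 on the log2 scale). The 4 markers present in the tables summed to 8.55 to 30.9 CPM in BHBNa_bIRI, 16.1 and 1.64 CPM in bIRI 1 and 3, and 0.639 to 1.21 CPM in Sham, and Gp6 was at 0 in 6 of the 8 libraries.

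The leukocyte integrins did not move together. Of 7 genes tested, Itgam alone rose and Itgal, Itgax and Itgb7 fell in bIRI against Sham, with a median log2 fold change of -1.21. That is 14.3% and 42.9% of the 7, against 18.9% and 16.2% of all genes. In BHBNa_bIRI against Sham, Itgam and Itgb2 rose, 28.6% of the 7 against 21.3% of all genes. None fell by edgeR (0 lower at an unadjusted p under 0.05 and 0 lower by DESeq2, but 1 lower without BHBNa_bIRI 3), and the median was -0.12. Their summed level was 24.5 to 33.8 CPM in BHBNa_bIRI, 23.9 and 13.5 CPM in bIRI 1 and 3, and 16.8 to 23.6 CPM in Sham.

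Itgam encodes the alpha subunit CD11b of neutrophils, monocytes and macrophages, and Itgax the subunit CD11c of dendritic cells and macrophages. Both lie on the forward strand of chromosome 7, Itgam from 128062640 to 128118491 and Itgax from 128129547 to 128150657. Itgam had 5.13, 6.95 and 4.18 CPM in BHBNa_bIRI, 7.51 and 1.72 CPM in bIRI 1 and 3, and 0.795, 0.479 and 0.879 CPM in Sham. Itgax had 3.31, 3.32 and 1.93 CPM in BHBNa_bIRI, 1.03 and 1.27 CPM in bIRI 1 and 3, and 3.68, 2.85 and 4.91 CPM in Sham. The 5 injured libraries were thus all above Sham for Itgam, whereas for Itgax both bIRI libraries were below Sham and BHBNa_bIRI overlapped it. Itgam rose by 2.68 (SE 0.56, edgeR adjusted p = 0.00615) on the log2 scale in bIRI against Sham and by 2.92 (SE 0.54, edgeR adjusted p = 0.00231) in BHBNa_bIRI against Sham, and the first value was 1.20 (adjusted p = 0.0352) without bIRI 1. Itgax fell by 1.73 (SE 0.39, edgeR adjusted p = 0.00879) in bIRI against Sham and was not called in BHBNa_bIRI against Sham (log2 fold change -0.42, SE 0.33). Since 68.7% of the exon bases of Itgam are shared on the same strand with the gene model Gm49368, which had at most 2 counts, the level of Itgam is uncertain.

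The promoters of this pair in the RefSeq table for GRCm38.p6 are shown because these nearby genes of 1 family went in opposite directions in bIRI against Sham. Itgam (chr7:128062390-128062689, forward strand) has a GC box on the other strand, printed here as its reverse complement and marked in capitals, with its first base 47 bases before the start. Itgax (chr7:128129300-128129599, forward strand) has no GC box, and capitals mark an AP-1 motif (TGANTCA) with its first base 56 bases before the start.
Itgam: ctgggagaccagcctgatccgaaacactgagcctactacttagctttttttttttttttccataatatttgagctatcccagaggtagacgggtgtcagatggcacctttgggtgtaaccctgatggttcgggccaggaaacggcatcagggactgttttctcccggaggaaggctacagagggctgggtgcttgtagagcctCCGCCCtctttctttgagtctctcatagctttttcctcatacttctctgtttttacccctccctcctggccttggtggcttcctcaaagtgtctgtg
Itgax: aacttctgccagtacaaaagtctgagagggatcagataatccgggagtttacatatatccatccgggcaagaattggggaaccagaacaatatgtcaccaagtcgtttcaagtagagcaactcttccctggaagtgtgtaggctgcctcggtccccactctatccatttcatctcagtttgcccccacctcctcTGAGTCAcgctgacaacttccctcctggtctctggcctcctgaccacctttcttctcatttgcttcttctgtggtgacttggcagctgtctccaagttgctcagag
Promoters were in the table for 23 of the 37 genes. An AP-1 motif was found for Itga3, Itga9 and Itgax and in 7.81% of 32851 promoters of the same length, and a GC box for 11 of the 23 genes and in 35.7% of promoters. The PU.1 motif GAGGAAGT, which a myeloid factor binds, was in the promoters of Itga11, Itgav, Itgb6 and Itgb7 (3.20% of all promoters), and the TEAD motif GGAATG was in those of Itga10, Itgb1 and Lamb3 (14.7%). The ETS motif CCGGAAGT (3.89%) and the TATA box TATAAA (13.6%) were in no promoter of these genes. Each motif was searched on both strands, and a match is a description of letters only.

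Itgb2, the beta subunit that all of CD11a, CD11b and CD11c need, had 10.49, 14.2 and 8.67 CPM in BHBNa_bIRI, 9.56 and 4.69 CPM in bIRI 1 and 3, and 6.51, 4.93 and 6.61 CPM in Sham. It was called in BHBNa_bIRI against Sham (log2 fold change 0.89, SE 0.30, edgeR adjusted p = 0.04) and not in bIRI against Sham (0.24, SE 0.34). Itgal, the CD11a subunit of lymphocytes and other leukocytes, had 3.26, 3.55 and 2.53 CPM in BHBNa_bIRI, 1.79 and 1.05 CPM in bIRI 1 and 3, and 3.78, 2.01 and 4.37 CPM in Sham. Its fall in bIRI against Sham was near the threshold (log2 fold change -1.25, SE 0.43, edgeR adjusted p = 0.0459) and was 0.91 in size (adjusted p = 0.138) without bIRI 3. Itgam held 46.3% to 52.9% of the summed CPM per kb of Itgal, Itgam and Itgax in BHBNa_bIRI, 75.4% and 44.8% in bIRI 1 and 3, and 9.39% to 10.6% in Sham. Itgax held 24.8% to 31.2% in BHBNa_bIRI, 10.8% and 34.4% in bIRI 1 and 3, and 51.1% to 59.7% in Sham.

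The subunits best known from lymphocytes were low throughout. Itgb7, which pairs with Itga4 or Itgae for homing to and staying in mucosal epithelium, had 2.82, 1.85 and 2.09 CPM in BHBNa_bIRI, 1.14 and 0.916 CPM in bIRI 1 and 3, and 3.33, 2.74 and 2.997 CPM in Sham. It fell by 1.55 (SE 0.35, edgeR adjusted p = 0.00825) on the log2 scale in bIRI against Sham and was not called in BHBNa_bIRI against Sham (log2 fold change -0.42, SE 0.29). Itgae had 0.699, 0.797 and 1.93 CPM in BHBNa_bIRI, 0.810 and 0.916 CPM in bIRI 1 and 3, and 1.99, 1.89 and 2.12 CPM in Sham. Itga4, the alpha subunit of the VCAM-1 receptor, had 2.42, 3.04 and 3.18 CPM in BHBNa_bIRI, 2.01 and 2.94 CPM in bIRI 1 and 3, and 2.01, 1.85 and 1.71 CPM in Sham. By edgeR in the 8 libraries, neither Itgae nor Itga4 passed the test in any of the 3 comparisons, but both did under alternatives: Itgae was lower in bIRI against Sham by DESeq2 and Itga4 was higher in BHBNa_bIRI against Sham without bIRI 3. Itgad, which encodes CD11d, had 0.0861 CPM in BHBNa_bIRI 2 and 0 counts in the other 7 libraries, where 3 counts, at 0.0654 to 0.0815 CPM, are the limit that a count of 0 allows for counting error alone. Of the exon bases of Itga4, 8.04% overlap Cerkl on the opposite strand, and the strand setting of the counting is not given in the sources used here.

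Markers of leukocytes also differed between groups, in different directions by cell type, and their part in the integrin values was not tested. Of 6 neutrophil markers 5 were tested; Retnlg, S100a8, S100a9 and Mmp8 rose in bIRI against Sham (Mmp8 not without bIRI 1), and all 5 rose in BHBNa_bIRI against Sham. Their summed level was 37.8 to 65.5 CPM in BHBNa_bIRI, 12.3 and 4.95 CPM in bIRI 1 and 3, and 0.936 to 1.71 CPM in Sham, with Ly6g at 0 in bIRI and Sham. Of 6 T and NK cell markers, Cd3d, Cd3e, Cd3g and Cd2 fell in bIRI against Sham (Cd2 not without bIRI 1, and Cd3e not without bIRI 1 or bIRI 3) and Cd3e fell in BHBNa_bIRI against Sham, with sums of 0.689 to 1.17 CPM in BHBNa_bIRI, 0.241 and 0.502 CPM in bIRI 1 and 3, and 2.53 to 3.67 CPM in Sham. Of 4 B cell markers, Ms4a1 fell in both comparisons, and the sums were 3.10 to 4.37 CPM in BHBNa_bIRI, 1.23 and 1.96 CPM in bIRI 1 and 3, and 2.31 to 4.73 CPM in Sham. Of 6 macrophage markers Cd68 rose and Csf1r fell in both comparisons, C1qa rose in BHBNa_bIRI against Sham, and the sums were 172 to 204 CPM in BHBNa_bIRI, 123 and 108 CPM in bIRI 1 and 3, and 107 to 179.7 CPM in Sham. The 5 general leukocyte markers summed to 80.0 to 91.1 CPM in BHBNa_bIRI, 49.2 and 25.8 CPM in bIRI 1 and 3, and 41.4 to 66.6 CPM in Sham.

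**Figure D3:**
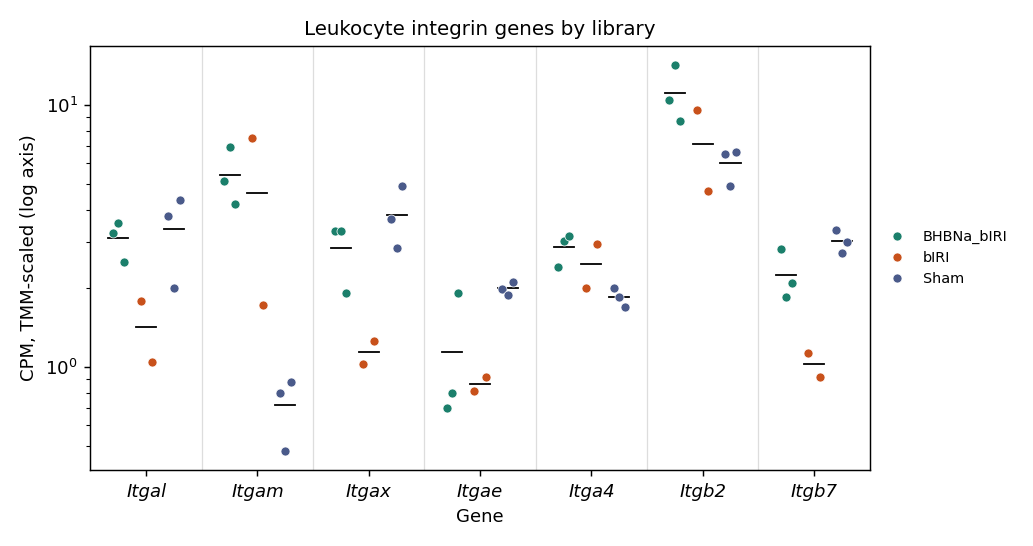
CPM on TMM-scaled library sizes (vertical log axis) of the 7 leukocyte integrin genes tested, with 1 point per library for BHBNa_bIRI (n = 3), bIRI (n = 2) and Sham (n = 3) and a line at each group's mean. Itgam is above Sham in all 5 injured libraries, while Itgax and Itgb7 are lowest in both bIRI libraries.

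The laminin chains changed by chain and not as a family. In bIRI against Sham, Lama5, Lamb3 and Lamc1 were among the chains that rose and Lama1 and Lamc3 fell, with a median log2 fold change of 0.27 over the 11 chains. In BHBNa_bIRI against Sham, Lama5, Lamb3 and Lamc1 rose again, and Lama1, Lama2, Lamb1 and Lamc3 fell, with a median of 0.24. Over all genes, 18.9% rose and 16.2% fell in bIRI against Sham, and 21.3% rose and 22.2% fell in BHBNa_bIRI against Sham. Lama5 is the main alpha chain of mature tubular and glomerular basement membranes, Lama1 an alpha chain of the developing nephron, and Lamb3 joins Lama3 in the epithelial laminin on which hemidesmosomes sit.

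Lamb3, on the forward strand of chromosome 1 from 193207699 to 193343878, had 17.4, 25.1 and 39.1 CPM in BHBNa_bIRI, 15.01 and 27.9 CPM in bIRI 1 and 3, and 3.11, 2.99 and 2.87 CPM in Sham. All injured libraries exceeded all Sham libraries. Lamb3 rose by 2.84 (SE 0.36, edgeR adjusted p = 0.000483) on the log2 scale in bIRI against Sham and by 3.18 (SE 0.34, edgeR adjusted p = 0.000131) in BHBNa_bIRI against Sham. Its alpha partner Lama3 had 11.7, 14.9 and 13.3 CPM in BHBNa_bIRI, 11.4 and 24.2 CPM in bIRI 1 and 3, and 18.8, 14.9 and 14.7 CPM in Sham. Lama3 was called in no comparison with all 8 libraries (without bIRI 1 it was lower in BHBNa_bIRI than in bIRI, at -0.80), with log2 fold changes of 0.14 (SE 0.30) in bIRI against Sham and -0.28 (SE 0.27) in BHBNa_bIRI against Sham.

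Lama5 had 173, 188 and 210.2 CPM in BHBNa_bIRI, 141 and 241 CPM in bIRI 1 and 3, and 76.9, 80.7 and 77.2 CPM in Sham. It rose by 1.28 (SE 0.23, edgeR adjusted p = 0.00269) on the log2 scale in bIRI against Sham and by 1.28 (SE 0.21, edgeR adjusted p = 0.00125) in BHBNa_bIRI against Sham. Lama1 had 15.1, 12.8 and 9.35 CPM in BHBNa_bIRI, 6.54 and 8.70 CPM in bIRI 1 and 3, and 26.9, 22.8 and 17.4 CPM in Sham. All injured libraries were below all Sham libraries, and Lama1 fell by 1.55 (SE 0.28, edgeR adjusted p = 0.00306) in bIRI against Sham and by 0.85 (SE 0.24, edgeR adjusted p = 0.0184) in BHBNa_bIRI against Sham. Lama5 held 80.3% to 84.3% of the summed CPM per kb of the 5 alpha chains in BHBNa_bIRI, 78.6% and 83.9% in bIRI 1 and 3, and 52.6% to 60.7% in Sham, while Lama1 held 4.41% to 8.27% in BHBNa_bIRI, 4.30% and 3.57% in bIRI 1 and 3, and 16.1% to 21.7% in Sham.

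Lamc1, the gamma chain of most laminins, had 87.7, 85.0 and 89.1 CPM in BHBNa_bIRI, 116 and 79.8 CPM in bIRI 1 and 3, and 52.6, 51.8 and 45.7 CPM in Sham. It rose by 0.97 (SE 0.19, edgeR adjusted p = 0.00397) on the log2 scale in bIRI against Sham and by 0.80 (SE 0.17, edgeR adjusted p = 0.00463) in BHBNa_bIRI against Sham. Lamc3, a minor gamma chain, had 4.29, 2.99 and 6.28 CPM in BHBNa_bIRI, 5.76 and 2.77 CPM in bIRI 1 and 3, and 13.7, 19.0 and 15.3 CPM in Sham. It fell by 1.91 (SE 0.40, edgeR adjusted p = 0.00608) in bIRI against Sham and by 1.83 (SE 0.34, edgeR adjusted p = 0.00262) in BHBNa_bIRI against Sham.

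Of the remaining chains, Lamb2, the beta chain of mature glomerular basement membrane, had 65.8 to 76.6 CPM in BHBNa_bIRI, 66.7 and 67.5 CPM in bIRI 1 and 3, and 61.0 to 62.6 CPM in Sham, and Lama4, of vessels, had 8.86 to 9.90 CPM in BHBNa_bIRI, 9.52 and 7.57 CPM in bIRI 1 and 3, and 5.87 to 7.85 CPM in Sham. Neither passed the test of edgeR in any comparison with the 8 libraries, though Lama4 was called higher in BHBNa_bIRI against Sham with length and GC offsets, at 0.75 (adjusted p = 0.0119). Lama2, of muscle and interstitium, had 5.50, 3.55 and 6.76 CPM in BHBNa_bIRI, 13.6 and 4.69 CPM in bIRI 1 and 3, and 14.8, 17.7 and 12.0 CPM in Sham. It fell by 1.49 (SE 0.39, edgeR adjusted p = 0.0129) in BHBNa_bIRI against Sham, where no BHBNa_bIRI library reached Sham, and was not called in bIRI against Sham (log2 fold change -0.69, SE 0.43). The bIRI libraries decide that value, which was -1.73 (edgeR adjusted p = 0.00285) without bIRI 1 and -0.12 without bIRI 3.

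**Figure D4:**
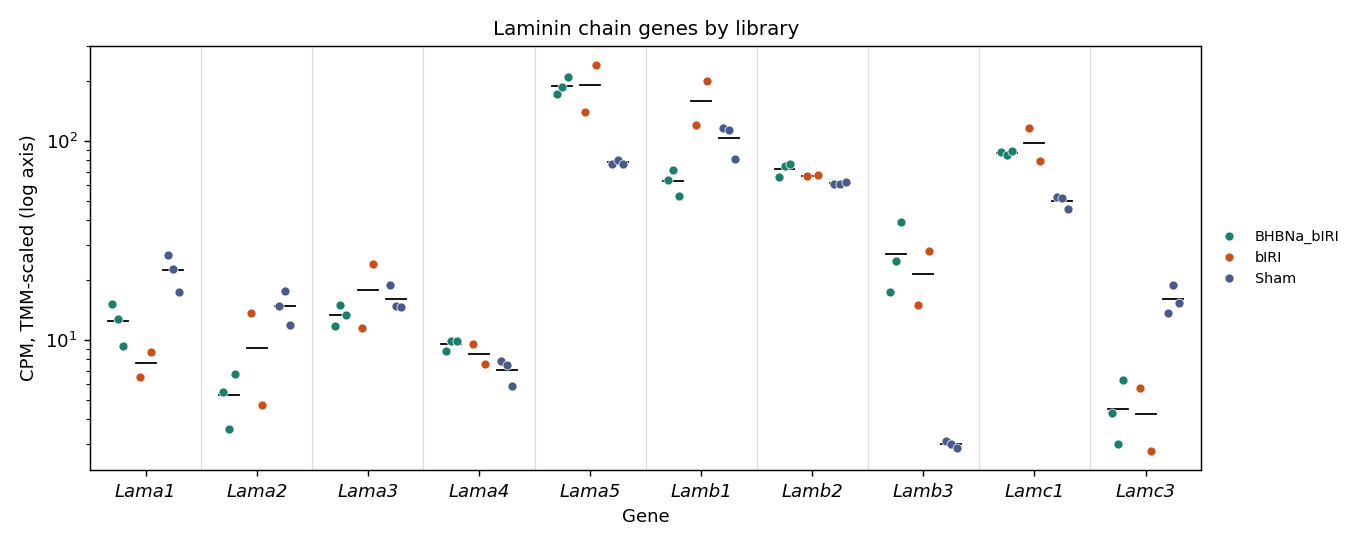
CPM on TMM-scaled library sizes (vertical log axis) of laminin chain genes, with 1 point per library for BHBNa_bIRI (n = 3), bIRI (n = 2) and Sham (n = 3) and a line at each group's mean. Lamb3 lies at 15.01 to 39.1 CPM in the injured libraries and near 3 CPM in Sham, Lamc3 is lower in every injured library than in Sham, and Lamb1 is lowest in BHBNa_bIRI.

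With BHB sodium before the injury, few of these genes differed from injury alone. In BHBNa_bIRI against bIRI, edgeR called none of the 36 genes higher and 3 lower (Lamb1, Itgb8 and Itga1), where 4.88% of all genes tested were higher and 8.65% lower. At an unadjusted p under 0.05 there were 5 genes higher and 3 lower, where 6191 of all 17967 genes tested passed in either direction. DESeq2 called 4 higher (Itgal, Itgax, Itgb5 and Itgb7) and 3 lower, where it called 2012 of all 17967 genes higher and 2495 lower. The median log2 fold change was 0.14, against -0.05 over all genes. Of the 14 genes that rose in both injured groups against Sham, none was called between BHBNa_bIRI and bIRI, which does not show that they were alike: for Itga5 the estimate was 0.31 with an SE of 0.60.

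Lamb1, the beta chain of laminins in most basement membranes (chromosome 12, 31265234 to 31329644, forward strand), had 63.7, 71.8 and 53.2 CPM in BHBNa_bIRI, 119.9 and 199.9 CPM in bIRI 1 and 3, and 116, 113 and 81.6 CPM in Sham. Every BHBNa_bIRI library was below every other library. It fell by 1.35 (SE 0.25, edgeR adjusted p = 0.0275) on the log2 scale in BHBNa_bIRI against bIRI, by 0.93 (adjusted p = 0.0424) without bIRI 3, and by 0.72 (SE 0.23, edgeR adjusted p = 0.0313) in BHBNa_bIRI against Sham. In bIRI against Sham it was not called (log2 fold change 0.63, SE 0.26, edgeR adjusted p = 0.0839), but it was higher without bIRI 1 (0.88, adjusted p = 0.00802). Lamb1 held 22.5% to 32.3% of the summed CPM per kb of the beta chains in BHBNa_bIRI, 47.7% and 56.8% in bIRI 1 and 3, and 43.4% to 52.6% in Sham.

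Itgb8, whose values are given above, fell by 0.81 (SE 0.21, edgeR adjusted p = 0.0392) in BHBNa_bIRI against bIRI. Itga1, a collagen and laminin receptor subunit of mesenchymal cells, had 42.4, 45.0 and 44.0 CPM in BHBNa_bIRI, 62.7 and 78.5 CPM in bIRI 1 and 3, and 60.1, 63.6 and 58.9 CPM in Sham. It fell by 0.69 (SE 0.16, edgeR adjusted p = 0.0315) in BHBNa_bIRI against bIRI and by 0.48 (SE 0.14, edgeR adjusted p = 0.0234) in BHBNa_bIRI against Sham. For both genes, too, no BHBNa_bIRI library reached a bIRI or Sham library. The calls of Lamb1, Itgb8 and Itga1 in BHBNa_bIRI against bIRI were all lost when Sham 1, Sham 2, BHBNa_bIRI 1 or BHBNa_bIRI 3 was left out, fits in which edgeR called 0 or 1 of all genes lower, and those of Itgb8 and Itga1 also without Sham 3, BHBNa_bIRI 2 or bIRI 3.

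Transcript length moved with this comparison across all genes. Over 12390 genes the rank correlation of transcript length with the log2 fold change in BHBNa_bIRI against bIRI was -0.537 across genes, which are not independent replicates, and the 4217 genes over 4000 bases had a median of -0.42. The integrin and laminin genes are long, with a median of 5425.5 bases against 2760.5 over the genes tested, and the transcripts of Lamb1, Itgb8 and Itga1 have 5784, 8403 and 10967 bases. With each library's trends in length and GC content taken out as offsets, the log2 fold change was -1.09 (SE 0.20, edgeR adjusted p = 0.0518) for Lamb1, -0.01 (SE 0.20, adjusted p = 0.98) for Itgb8 and 0.15 (SE 0.15, adjusted p = 0.55) for Itga1. In that fit 0 of 17967 genes were higher and 2 lower by edgeR (4694 at an unadjusted p under 0.05), none of them an integrin or laminin gene, and 30 of the 36 genes had a positive log2 fold change, against 23 without offsets.

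**Figure D5:**
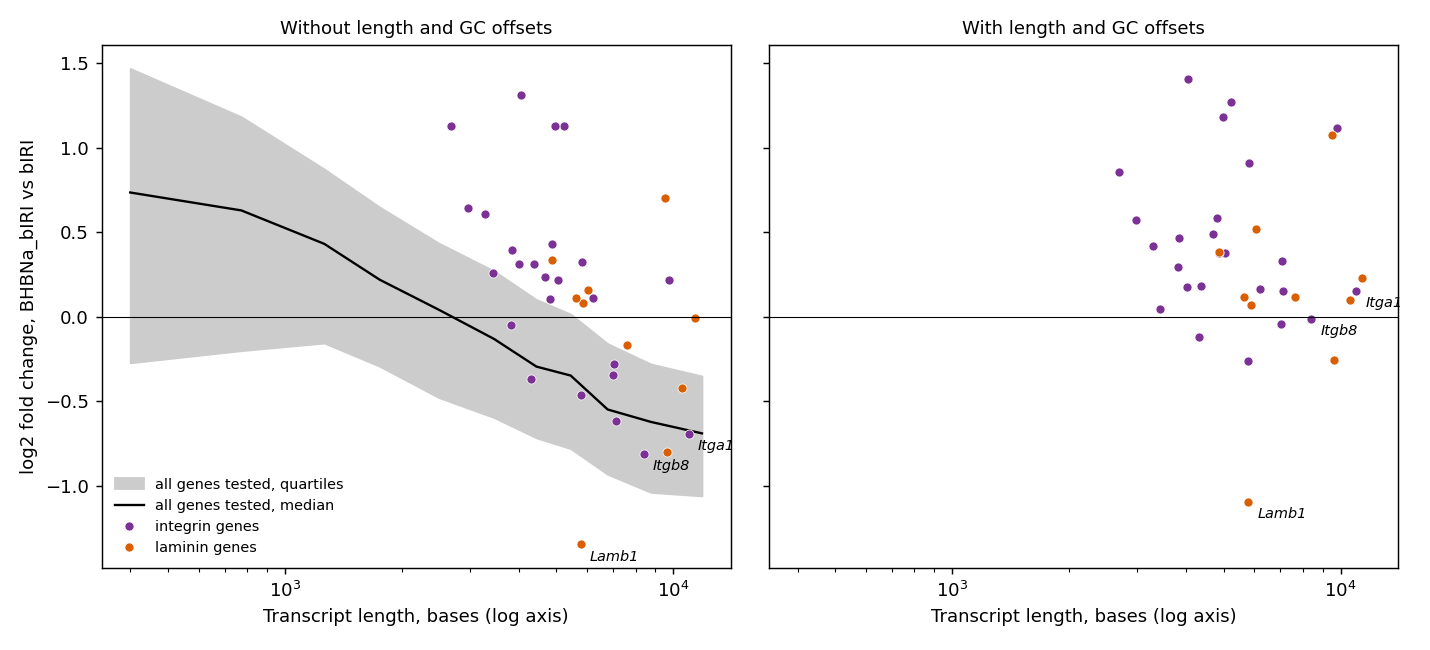
Log2 fold change in BHBNa_bIRI against bIRI (vertical axis) against transcript length in bases (horizontal log axis) of integrin and laminin genes, without offsets (left, with the median line and quartile band of all genes tested) and with length and GC offsets (right). Itgb8 and Itga1 lie near the falling line of all genes at the left and close to 0 at the right, while Lamb1 stays lowest in both.

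In the other direction, 3 of the 5 genes higher at an unadjusted p under 0.05 were leukocyte integrins. The others were Itgb5 at 0.61 (SE 0.19, edgeR adjusted p = 0.0639) and Lama1 at 0.71 (SE 0.27, edgeR adjusted p = 0.104). All 7 leukocyte integrins tested had a positive log2 fold change in BHBNa_bIRI against bIRI, with a median of 0.64, as had 23 of all 36 genes. None of the 7 passed the test of edgeR, while DESeq2 called 3 of them. Itgax had a log2 fold change of 1.31 (SE 0.39, edgeR adjusted p = 0.0523), Itgb7 1.13 (SE 0.35, edgeR adjusted p = 0.0562), and Itgal 1.13 (SE 0.42, edgeR adjusted p = 0.0952), and for each of them both bIRI libraries were below all 3 BHBNa_bIRI libraries. Without bIRI 1, so with bIRI 3 as the single injury library, edgeR called 9 of the 36 genes higher, among them these 3 with Itgam and Itgb2, where 21.4% of all genes were higher. Without bIRI 3 it called 1, Itga2b, where 1.38% of all genes were higher. Itgam was the leukocyte subunit that depended most on the library, at 1.71 (adjusted p = 0.0102) on the log2 scale without bIRI 1 and -0.47 (adjusted p = 0.435) without bIRI 3. Coro1a and Cd52 of the 5 general leukocyte markers and S100a8, S100a9 and Csf3r of the neutrophil markers were also higher in BHBNa_bIRI than in bIRI by edgeR, of which Cd52, S100a9 and Csf3r were not called without bIRI 3, and their part was not tested.

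Other proteins sit next to the laminins in the basement membrane and at its receptors. For the counts below, edgeR called 18.9% of all genes higher and 16.2% lower in bIRI against Sham. The shares were 21.3% and 22.2% in BHBNa_bIRI against Sham, and 4.88% and 8.65% in BHBNa_bIRI against bIRI. Of 18 basement membrane partners, 9 rose in bIRI against Sham and none fell (edgeR; 0 lower at an unadjusted p under 0.05 and 0 lower by DESeq2), with a median log2 fold change of 0.88. The 9 were 4 without Sham 1, 2 or 3, where 2118, 2088 and 2358 of all genes rose, against 3396 with the 8 libraries. Without bIRI 1 the median was 0.78 and without bIRI 3 it was 0.12, and in both fits the counts moved and a partner fell. Col4a6 had the largest log2 fold change, 2.52 (SE 0.76), but with 2.36 CPM in bIRI 1, 24.2 CPM in bIRI 3 and 1.86 to 2.97 CPM in Sham this rests on bIRI 3, without which it was 0.03 (edgeR adjusted p = 0.968). It was followed by Sparc at 1.79 (SE 0.40), Col4a1 at 1.52 (SE 0.38) and Col4a2 at 1.46 (SE 0.32). Col4a1, a chain of the ubiquitous type IV collagen network, had 573, 536 and 741 CPM in BHBNa_bIRI, 978 and 329 CPM in bIRI 1 and 3, and 221, 223 and 239.6 CPM in Sham, and its rise was 0.46 (edgeR adjusted p = 0.0846) without bIRI 1. In BHBNa_bIRI against Sham 6 rose, Sparc most at 2.05 (SE 0.38), and 5 fell, Fras1 most at -1.36 (SE 0.33). In BHBNa_bIRI against bIRI 5 fell and none rose by edgeR (0 higher at an unadjusted p under 0.05 and 0 higher by DESeq2). These counts moved without bIRI 1, where some also rose, and fewer fell without any other single library. The median log2 fold change was -0.90 without bIRI 1 and -0.50 without bIRI 3. With length and GC offsets edgeR called 0 of the 18 in either direction, in a fit that called 0 of all 17967 genes higher and 2 lower. The median log2 fold change was -0.28 in place of -0.70. The falls were led by Col4a3 at -2.49 (SE 0.44), Col4a4 at -1.39 (SE 0.35), Frem2 at -1.16 (SE 0.31) and by Ntn4, a netrin that binds laminin, at -0.997 (SE 0.21). With the offsets they were -1.94, -0.83, -0.62 and -0.93 in the same order. Col4a3, of the collagen network of the glomerular basement membrane, had 26.9, 44.2 and 21.3 CPM in BHBNa_bIRI, 83.4 and 263 CPM in bIRI 1 and 3, and 80.2, 70.0 and 65.6 CPM in Sham, so bIRI 3 lay far above bIRI 1. Without bIRI 3 the log2 fold change of Col4a3 was -1.44, and Col4a4 (-0.47) and Frem2 (-0.52) were not called.

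Of 6 other laminin receptors, Cd44, Sdc1 and Bcam rose in bIRI against Sham, by 2.56 (SE 0.52), 1.59 (SE 0.23) and 1.03 (SE 0.29) on the log2 scale, and these with Rpsa rose in BHBNa_bIRI against Sham. Bcam, the Lutheran glycoprotein that binds Lama5, had 355, 447 and 605 CPM in BHBNa_bIRI, 263 and 452 CPM in bIRI 1 and 3, and 158, 198 and 169.6 CPM in Sham. Rpsa, which is both a laminin receptor and a small-subunit ribosomal protein, was the one receptor called in BHBNa_bIRI against bIRI, at 1.43 (SE 0.35, edgeR adjusted p = 0.0354). Without bIRI 3, neither Rpsa in BHBNa_bIRI against bIRI (1.00) nor Bcam in bIRI against Sham (0.59) was called.

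Of 10 hemidesmosome and tetraspanin partners, 5 rose and 1 fell in bIRI against Sham, and 6 rose and 1 fell in BHBNa_bIRI against Sham. The basal keratin genes led, with Krt14 at 26.6, 28.6 and 18.1 CPM in BHBNa_bIRI, 11.6 and 15.2 CPM in bIRI 1 and 3, and 0.447, 0.068 and 0.569 CPM in Sham. Krt14 rose by 5.22 (SE 0.53, edgeR adjusted p = 0.000184) on the log2 scale in bIRI against Sham and by 6.09 (SE 0.52, edgeR adjusted p = 4.17e-05) in BHBNa_bIRI against Sham. Krt5 rose by 4.72 (SE 0.53) and 5.24 (SE 0.52) in the same comparisons, and Plec, which links Itgb4 to keratin, by 1.47 (SE 0.18) and 1.69 (SE 0.17). Col17a1, the transmembrane collagen of hemidesmosomes, rose by 4.61 (SE 0.65) and 5.21 (SE 0.63). It had 0.0497, 0.0457 and 0.103 CPM in Sham, where 3 counts equal 0.0685 to 0.0775 CPM, so its fold changes rest on few Sham counts. In BHBNa_bIRI against bIRI 1 rose, Cd81 at 0.81 (SE 0.22), and 1 fell, Dst at -1.36 (SE 0.34), and neither was called without bIRI 3 (0.58 and -0.43).

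Of 20 RGD-bearing and inflammatory ligands 16 were tested; 8 rose in bIRI against Sham and 13 in BHBNa_bIRI against Sham, and none fell in either (edgeR; 0 lower at an unadjusted p under 0.05 and 0 lower by DESeq2 in each). These counts moved when single libraries were left out, and without bIRI 1 some ligands fell in bIRI against Sham. There the median log2 fold change was 0.24 without bIRI 1 and 1.29 without bIRI 3. As few as 10 rose in BHBNa_bIRI against Sham without a Sham or BHBNa_bIRI library. In those fits 2473 to 3101 of all genes rose, against 3829 with the 8 libraries. Spp1, which encodes osteopontin, Tnc, which encodes tenascin-C, and the fibrinogen chains Fgb and Fgg had the largest log2 fold changes in both. Tnc, a ligand of Itga9, had 96.0, 126 and 168 CPM in BHBNa_bIRI, 227 and 35.1 CPM in bIRI 1 and 3, and 5.62, 8.88 and 6.02 CPM in Sham. Fn1, the ligand of Itga5, was higher in BHBNa_bIRI than in bIRI by 1.17 (SE 0.32, edgeR adjusted p = 0.0418), with 66.1, 61.9 and 56.7 CPM in BHBNa_bIRI, 38.3 and 16.5 CPM in bIRI 1 and 3, and 25.3, 31.9 and 34.2 CPM in Sham. Icam2, a ligand of Itgal, was the other one higher in that comparison, at 1.29 (SE 0.29), and without bIRI 3 neither was called (0.68 for Fn1 and 1.02 for Icam2).

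Inside the cell, 38 of 39 genes of the integrin adhesion complex were tested. In bIRI against Sham 9 rose, led by Ilk, Actn1 and Flna, and Tln2 fell, while in BHBNa_bIRI against Sham 9 rose and 7 fell, which is 23.7% and 18.4% of the 38 against 21.3% and 22.2% of all genes tested. These counts moved with single libraries. In BHBNa_bIRI against Sham 4 rose without Sham 1 or Sham 2, where 2473 and 2476 of all genes rose, against 3829 with the 8 libraries. The counts also moved without 1 bIRI library. Actn1, which crosslinks actin at adhesions, had 94.8, 111 and 90.3 CPM in BHBNa_bIRI, 162 and 72.6 CPM in bIRI 1 and 3, and 23.0, 22.3 and 21.6 CPM in Sham. Tln2, a talin that activates integrins from inside, had 44.7, 41.2 and 42.2 CPM in BHBNa_bIRI, 32.3 and 91.6 CPM in bIRI 1 and 3, and 224, 212 and 168 CPM in Sham. Ilk was counted at no more than 0.480 CPM in any library, so its fold changes rest on few counts. In BHBNa_bIRI against bIRI 1 rose and 5 fell, among them Vcl, the vinculin gene, at -1.95 (SE 0.51) and Krit1 at -1.01 (SE 0.29), and neither of these was called without bIRI 3 (-0.94 and -0.39). With length and GC offsets, edgeR called no gene of the receptor, hemidesmosome, ligand or adhesion complex lists in BHBNa_bIRI against bIRI. That fit called 0 of all 17967 genes higher and 2 lower, so this is no result about these lists.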

How the data were processed

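Each library has 1 deposited table of raw read counts per gene. Per the submitters' processing notes, the tools were HISAT2, featureCounts of Subread and DESeq2, with mm10; versions, annotation and strand setting are not given in the sources used here. Symbols, positions and exon lengths came from GENCODE M21 on GRCm38 (mm10), which named 29220 of 29678 genes.

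The genes described and all lists were chosen with earlier results of these data known. Other genes were named by a rule: up to 4 called genes per list and comparison, largest log2 fold change first, besides cell type markers.

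Counts of 8 libraries were fitted with edgeR 4.0.16 in R 4.3.3: TMM factors, filterByExpr, 1 mean per group, robust quasi-likelihood tests (two-sided), 5 residual degrees of freedom, Benjamini-Hochberg adjustment over 17967 genes, threshold 0.05. The SE was the log2 fold change divided by the square root of F. CPM used TMM-scaled library sizes, so that 3 counts equal 0.0646 to 0.0815 CPM. The procedure was tested on simulated data, for bIRI against Sham only. The same spread was simulated for all genes and groups, so the wide difference between the bIRI libraries was not represented. Alternatives were DESeq2 1.42.0, RLE and upper-quartile factors, TMM without mitochondrial and the 20 most abundant genes, no filter, a filter at 1 CPM in 3 libraries, only the 2 groups compared, a block for replicate numbers, offsets for transcript length and GC content (natural splines with 5 degrees of freedom) with and without that block, all 9 tables, and leaving out each library. The 6 promoter motifs were chosen after the promoters had been seen. The values of 1 gene are not reported here, in text or figures; it stayed in the counts and medians.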

Additional observations from a re-analysis of the deposited data

How the results depend on the processing

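In bIRI against Sham the count of genes higher (15) was 10 to 17 and the count lower (6) was 5 to 9 over all alternatives, and in BHBNa_bIRI against Sham the count higher (16) was 13 to 19. The count lower in BHBNa_bIRI against Sham (6) was 3 with length and GC offsets and the replicate block together, and 3 to 7 when libraries were left out. In BHBNa_bIRI against bIRI the count higher (0) was 4 with DESeq2, 1 without a filter, 1 with the filter at 1 CPM and 5 with all 9 tables. It was 0 when a Sham or BHBNa_bIRI library was left out. The fit of all 9 tables counts bIRI 2, the mean of bIRI 1 and 3, as if it were a separate library. There 2724 of all 17605 genes were higher and 3123 lower, against 876 and 1555 of 17967 without bIRI 2. The 17 genes higher in bIRI against Sham also came from that fit. The count lower (3) was 0 with only the 2 groups compared, 0 with the replicate block, 0 with length and GC offsets and 0 with both. These fits called almost no gene at all. Of all genes they called 1 higher and 0 lower of 17407 with the 2 groups, and 0 and 0 of 17967 with the block. With offsets they called 0 and 2, and with both 0 and 0. A count of 0 there is thus no result about the 36 genes. When a Sham or BHBNa_bIRI library was left out the count lower was 0 or 1, where 0 to 699 of all genes were lower. Under the offsets Itga1 had a log2 fold change of 0.15, and with the block added Itga1 had 0.18 and Itgb8 0.014, against falls without them; the cause was not tested further. Over single genes, 1889 alternative values kept their call, 103 lost it, 54 gained it and 3 changed sign; sign changes of genes not called were counted as kept. With the replicate block the counts were 13 higher and 5 lower, 0 and 0, and 15 higher and 4 lower in the 3 comparisons. Libraries with the same number deviated from their group means with correlations of -0.206 to 0.0925. The deviations of the 2 bIRI libraries mirror each other, and groups are small, so this check cannot decide whether libraries were paired. The block is no evidence of pairing. With 2 bIRI libraries that differ widely, and with genes such as Itga11 and Itgae below 3 CPM, changes of moderate size could not be resolved.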
